A study of Mus musculus with 4 samples.

Results

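The metalloproteases and their TIMP inhibitors are the 65 genes, of 18193 with a symbol on the array, whose symbol begins with Mmp (18 genes), Adam (28), Adamts (15) or Timp (4) and continues with a digit. They were measured in tumours of iNRAS-475, a mouse melanoma line, grown in the dermis of nude mice that drank 2 mg/ml doxycycline, which keeps the inducible NRAS on. Tumours had reached 200 to 500 mm3 after 6 weeks, and 1 array was made of tumour tissue on doxycycline (the on array) and 1 for each of 24, 48 and 72 h after withdrawal of the drug. The 4 groups share the cell line, the host strain and the doxycycline given while the tumours grew. The promoter that drives NRAS, the age of the mice and the number of tumours or animals behind an array are not given in the sources used here. There was 1 array per condition, so no difference has a replicate error or a p-value, and animal, piece of tumour and time off the drug cannot be told apart.

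These proteins control how cells cut and remodel their surroundings. MMPs are zinc-dependent proteases made as inactive precursors, most of them secreted and some, the membrane-type MMPs, anchored at the cell surface. TIMPs bind the active site of MMPs and block it. ADAMs are membrane proteases that release growth factors, cytokines and receptors from the cell surface, and ADAMTSs are secreted enzymes that cut proteoglycans and other matrix proteins. In melanoma, ERK signalling is known to drive several of these genes, and stromal cells such as fibroblasts and macrophages make many of them too.

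Of the 65 members, 44 passed a filter on low values (a mean level at or above that of an intensity of about 24.8) and 21 did not. Those that did not are Mmp1a, Mmp1b, Mmp8, Mmp12, Mmp20, Adamts3, Adamts18, Adamts19, Adamts20 and 12 ADAMs, most of them known from the testis. Their intensities lay between 7.56 and 23.9, and their largest difference from the on array was 0.25 in size on the scale log2(intensity + 32), which is used for all differences here and understates those of dim genes. Adam1a and Adam6b passed the filter although 1 and 2 of their arrays lay below it. The members just above it were Adam1a, at 40.6, 27.2, 22.3 and 28.7 on the on, 24, 48 and 72 h arrays, and Adamts6, at 25.3, 28.0, 28.0 and 29.9. Those just below it were Adam28, at 23.2 on every array, and Mmp8, at 23.4, 18.1, 21.9 and 23.9. Adam6a and Adam6b, Adam1a and Adam1b, and Mmp1a and Mmp1b are close copies whose probe sets may share signal.

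Melanocyte, stromal and blood cell markers give the setting. Of 9 melanocyte markers Mitf, Dct, Pmel, Sox10, Mc1r and S100b passed the filter, and Tyr, Tyrp1 and Mlana, which define pigmented cells, did not. The summed intensity of the 9 was 4439, 4198, 5754 and 4888 on the on, 24, 48 and 72 h arrays, most of it from Sox10 (3771, 3613, 4681 and 3844). Pmel had a difference from the on array of 1.14 at 72 h, Mitf was at 0.84, S100b at 0.62, and Mc1r and Dct were at -0.24 and -0.21. Host and tumour are both mouse, so the array cannot assign a transcript to either, and in such bulk samples fewer cells of a type and less RNA per cell cannot be told apart.

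The metalloproteases and TIMPs differed little at 24 h and most at 72 h. Timp1 stood 4.75-fold below the on array after 48 h and 8.18-fold below it after 72 h, as a ratio of intensities. At 24 h 0 of 44 members were 2-fold higher and 0 were 2-fold lower (a difference of at least 1 in size), against 0.266% and 0.0665% of all 13525 genes that passed the filter (0.333% either way). At 48 h 0 members were higher and 1, Timp1, was lower, against 0.739% and 1.04% of all genes (1.77% either way). At 72 h 5 members (11.4%) were higher, Mmp2, Mmp14, Adam12, Adam23 and Adamts12, and 2 (4.55%) were lower, Timp1 and Adamts1, against 2.26% and 1.6% of all genes (3.86% either way). The 3 comparisons share the on array. No member was 2-fold different in 1 direction at all 3 times, as 0.0591% of all genes were on the higher and 0.0222% on the lower side.

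**Figure D1:**
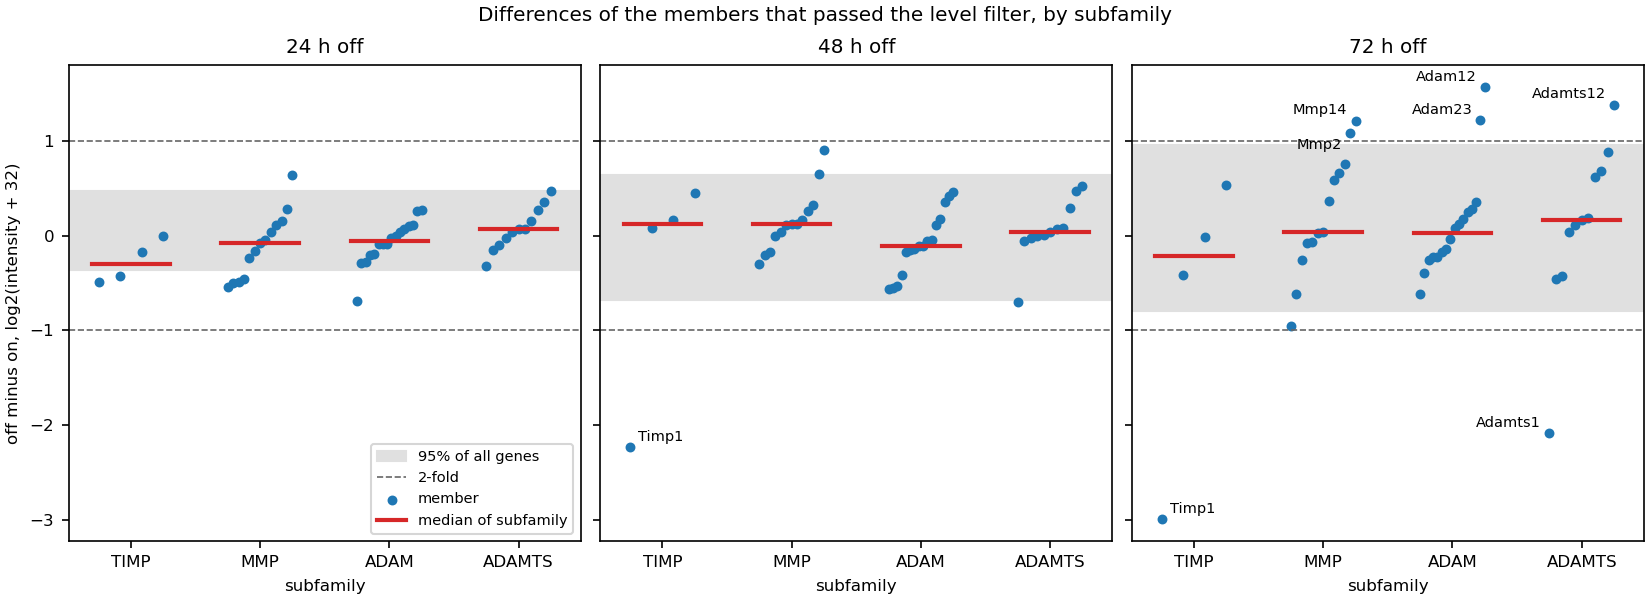
Each point is a member that passed the level filter, plotted as its difference from the on array in log2(intensity + 32) at 24, 48 and 72 h. The grey band holds 95% of all genes, dashed lines mark 2-fold and red bars the median of each subfamily. Timp1 lies at -2.23 at 48 h and -2.99 at 72 h, and at 72 h Adamts1 lies at -2.08 and 5 members above 1.

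The median difference of the 13 MMPs was -0.08, 0.12 and 0.04 at 24, 48 and 72 h, that of the 16 ADAMs -0.06, -0.11 and 0.03, that of the 11 ADAMTSs 0.07, 0.03 and 0.17 and that of the 4 TIMPs -0.30, 0.12 and -0.22. The median over all genes was 0.00 at each time. The median size of the difference, whatever its sign, was 0.58 for MMPs, 0.24 for ADAMs, 0.46 for ADAMTSs and 0.47 for TIMPs at 72 h, against 0.13 for all genes. At 24 h these were 0.24, 0.11, 0.15 and 0.30 against 0.10. Equal values on at least 2 arrays, which shrink differences, were found for 36.9% of all genes that passed the filter and 20.5% of such members. The part of these ties in the contrast was not tested. Genes differ in brightness and number of probe sets, so these medians describe the subfamilies and set none of them apart by a test.

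Among the inhibitors, Timp1 was the member with the greatest difference of all 44. TIMP1 is a secreted inhibitor of most MMPs that also promotes cell survival, and its transcription is known to respond to ERK through AP-1 and ETS factors. It read 7705, 6833, 1620.4 and 942 on the on, 24, 48 and 72 h arrays, in units of intensity. Both later arrays lay far below the on and 24 h arrays, which were close to each other. The differences were -0.17, -2.23 and -2.99, and Timp1 ranked 11 from the lowest of 13525 genes at 48 h and 10 from the lowest at 72 h. Most of the step fell between 24 and 48 h, where the difference was -2.05, and a further -0.76 lay between 48 and 72 h. The array holds 1 probe set for it, so no other probe set checks the value.

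The stretch before the start of Timp1 is shown because this gene had the greatest difference and its known regulators bind short motifs that can be searched. The 250 bases before the RefSeq start, at chrX:20869916-20870165 of GRCm38.p6 on the plus strand, are given 5′ to 3′ with the ETS letters AGGAAG in capitals. Both strands were searched for AGGAAG and for the AP-1 letters TGANTCA, a search that reads the same on both strands.
Timp1: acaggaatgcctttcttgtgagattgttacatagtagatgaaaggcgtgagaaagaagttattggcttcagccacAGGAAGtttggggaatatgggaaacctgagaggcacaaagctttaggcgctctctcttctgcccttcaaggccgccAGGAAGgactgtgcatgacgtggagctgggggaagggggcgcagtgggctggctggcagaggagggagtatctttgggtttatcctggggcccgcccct
The stretch holds AGGAAG at 2 places, whose first bases lie 175 and 99 bases before the start, and no TGANTCA. Of all 32851 promoter stretches of this length in the table, 29.5% hold AGGAAG on either strand and 6.75% hold TGANTCA. A match of letters is not evidence of binding, and a missing match says nothing of a factor.

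The other TIMPs did not share this course. Timp2, which blocks MMPs and also helps Mmp14 activate the Mmp2 precursor, had intensities of 3033, 2244, 4166 and 4401 on the on, 24, 48 and 72 h arrays. It was lowest at 24 h and above the on array at both later times, with differences of -0.43, 0.45 and 0.53. Its 4 other probe sets above the filter went the same way: they lay between -0.34 and -0.07 at 24 h, 0.39 and 1.06 at 48 h and 0.36 and 0.82 at 72 h. Timp3, which stays bound to the matrix and inhibits ADAM17 as well as MMPs, read 3125, 2211, 3506 and 2334. It was low at 24 and 72 h and highest at 48 h, with differences of -0.49, 0.16 and -0.42. Its 3 other probe sets lay between -0.31 and -0.09 at 24 h, 0.34 and 1.10 at 48 h and -0.52 and -0.29 at 72 h, so all had the signs of the brightest. Timp4 was dim, between 45.0 and 50.7 on the 4 arrays. No TIMP other than Timp1 reached a 2-fold difference by its brightest probe set.

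**Figure D2:**
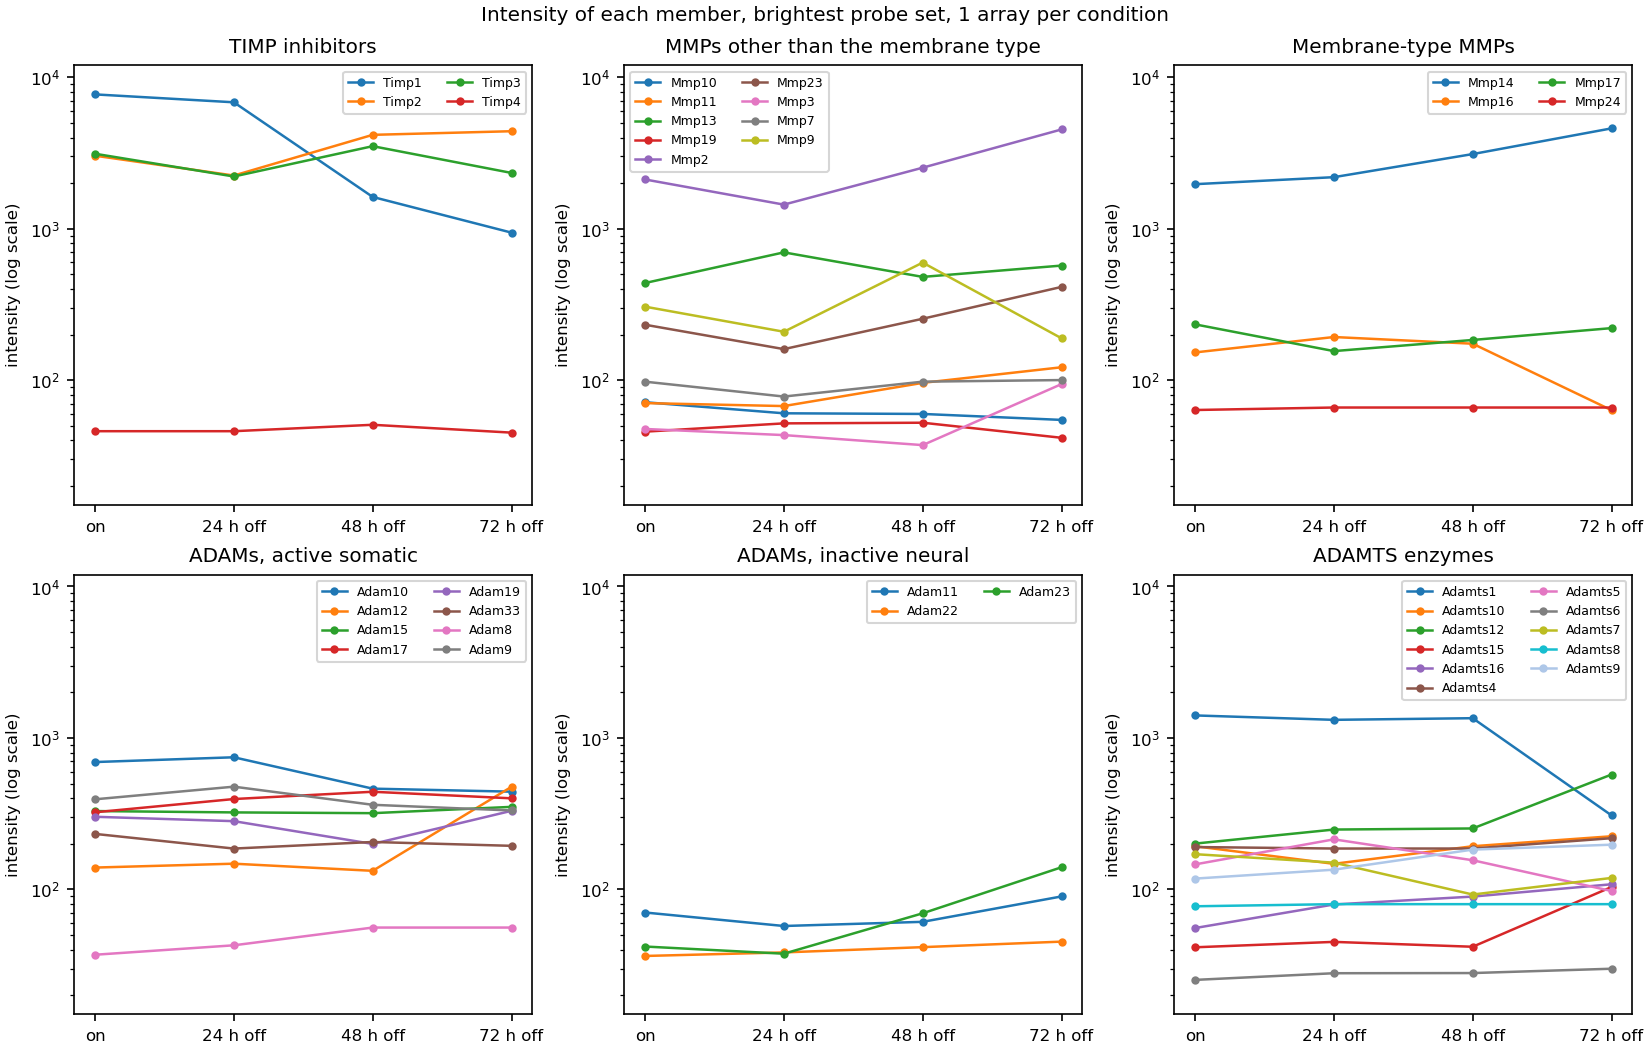
Intensity (log scale) on the 4 arrays of the members that passed the filter, without the 5 germ line ADAMs, by role: TIMPs, MMPs other than the membrane type, membrane-type MMPs, active somatic ADAMs, inactive neural ADAMs and ADAMTSs. Levels are to be compared along a line, not between lines, since probe sets differ in brightness for the same amount of RNA. Timp1 goes from 7705 to 942, and Mmp2 and Mmp14 are highest at 72 h.

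Of the MMPs, Mmp14 and Mmp2, which act together at the cell surface, were 2-fold higher at 72 h. Mmp14 encodes MT1-MMP, the membrane-type enzyme that cuts collagen and activates the Mmp2 precursor. It read 1968, 2189, 3109.7 and 4596 on the on, 24, 48 and 72 h arrays, higher on each later one. The differences were 0.15, 0.65 and 1.21. The 2 other Mmp14 probe sets were at 0.13 and 0.28, 0.80 and 0.61, and 0.86 and 0.69, so the direction was shared by all 3 and the 2-fold size only by the brightest. With a mean over the probe sets the difference at 72 h was 0.92. Mmp2, a gelatinase made mainly by stromal cells, read 2114, 1442, 2528 and 4522. It was lowest at 24 h and highest at 72 h, with differences of -0.54, 0.25 and 1.09. Its other probe set gave -0.63, 0.18 and 1.15.

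**Figure D3:**
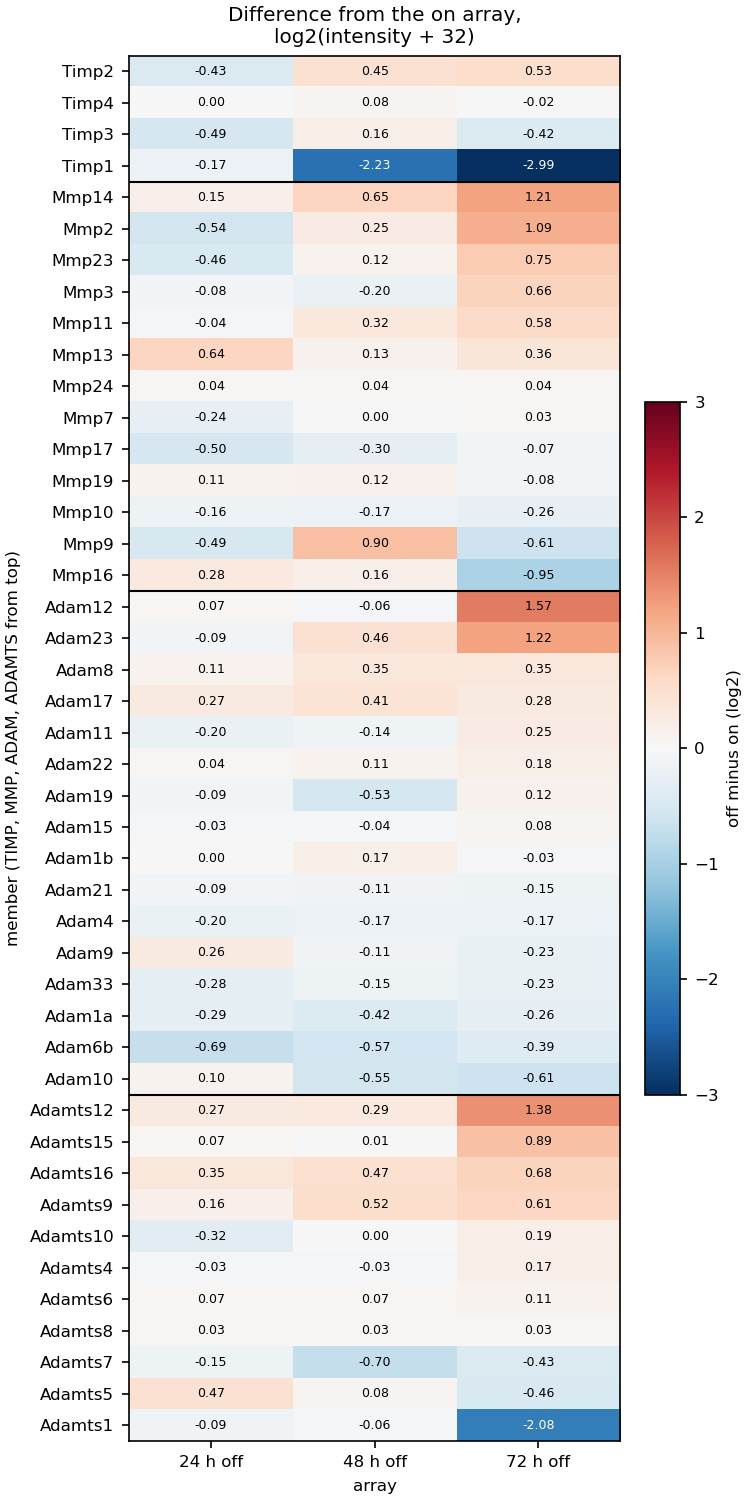
Difference from the on array, in log2(intensity + 32), of the 44 members that passed the filter, with the value in each cell, in the order TIMPs, MMPs, ADAMs and ADAMTSs and, within each, from the highest to the lowest at 72 h. Timp1 is at -2.99 and Adamts1 at -2.08 at 72 h, whereas Adam12 is at 1.57.

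Mmp9 had a course of its own. This gelatinase, known from tumour cells and from macrophages and neutrophils, had intensities of 306, 209, 597 and 189 on the on, 24, 48 and 72 h arrays. It was high on the 48 h array alone, and both the 24 and 72 h arrays lay below the on array. The differences were -0.49, 0.90 and -0.61, and the other Mmp9 probe set gave -0.76, 1.17 and -0.67. Between 24 and 48 h Mmp9 was higher by 1.39, the only member 2-fold higher over this step (0.547% of all genes were), and Timp1 was the only one 2-fold lower (0.998% of all genes were). Of 8 neutrophil markers on the array, 6 passed the filter, and the 8 summed to 322, 324, 319 and 324, with S100a8 and S100a9, which define the type, below the filter. The macrophage markers summed to 4993, 8604, 7009 and 13000.3, and single ones differed from their sum, with Cd68 at 1.24 and Mrc1 at -0.68 at 48 h. The part of these cells in the course of Mmp9 was not tested.

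By their brightest probe sets, the remaining MMPs stayed under a difference of 1 in size on the log2(intensity + 32) scale. Mmp16, a membrane-type MMP known from melanoma and the nervous system, read 152, 193, 174 and 63.3, low on the 72 h array alone, with differences of 0.28, 0.16 and -0.95. As a ratio of intensities the on array stood 2.41-fold above the 72 h array. The difference of Mmp16 at 72 h was -1.17 with a pseudocount of 8, -1.27 with none and -1.01 after quantile normalization. Its other probe set above the filter gave -0.04 at 72 h. Mmp23, which is released from the membrane by its own processing, read 232, 160, 254 and 413, with differences of -0.46, 0.12 and 0.75, and its other probe set was at 1.42 at 72 h. The stromelysins Mmp3 and Mmp11 were highest at 72 h. Mmp3 read 47.6, 43.4, 37.2 and 94.2 and Mmp11 70.5, 67.4, 95.9 and 122, with differences of 0.66 and 0.58 at 72 h.

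Mmp13, a collagenase, was highest at 24 h. It read 438, 698, 480.5 and 571 on the 4 arrays, with differences of 0.64, 0.13 and 0.36. At 24 h this was the highest difference of any member and ranked 135 from the highest of all genes. Mmp17, a membrane-type MMP tied to the membrane by a lipid anchor, read 234, 155.5, 184 and 221, with -0.50 at 24 h. Mmp7 (matrilysin), Mmp10 (another stromelysin), Mmp19 and Mmp24 stayed within 0.26 of the on array at every time. Mmp24 read 63.5 on the on array and 65.9 on each of the others, such a tie being common in this table.

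Many of these genes lie side by side, and their promoters share a motif. In the RefSeq order of protein-coding genes 10 MMP genes follow each other on 1 chromosome, and 9 of them are members: Mmp1a, Mmp1b, Mmp3, Mmp7, Mmp8, Mmp10, Mmp12, Mmp13 and Mmp20. Of these 9, all but Mmp8 hold TGANTCA within 250 bases before a RefSeq start. In all, 10 of the 42 promoter stretches found for 37 members hold it (23.8%), against 6.75% of all stretches. Outside the run it was found only before Adam19 and Adam25, so the share comes mostly from the run and not from the members at large. Of the 30 stretches of members that passed the level filter, 5 hold it. The 80 bases before the start are shown for the 4 that passed the level filter, with TGANTCA and AGGAAG in capitals, all on the plus strand of GRCm38.p6, at chr9:7445742-7445821, chr9:7692010-7692089, chr9:7502262-7502341 and chr9:7272434-7272513 in turn. For Mmp7 the stretch is the one before the first of its 2 starts.
Mmp3: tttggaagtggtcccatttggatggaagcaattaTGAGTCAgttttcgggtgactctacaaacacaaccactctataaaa
Mmp7: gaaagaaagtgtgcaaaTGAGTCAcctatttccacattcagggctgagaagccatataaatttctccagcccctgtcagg
Mmp10: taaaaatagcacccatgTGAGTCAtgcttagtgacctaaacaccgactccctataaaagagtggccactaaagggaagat
Mmp13: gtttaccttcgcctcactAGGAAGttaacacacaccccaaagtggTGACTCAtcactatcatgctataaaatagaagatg
The AP-1 letters begin 46, 63, 63 and 35 bases before the start. At 72 h these 4 genes were at 0.66, 0.03, -0.26 and 0.36, and none was 2-fold different at any time.

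The AP-1 and ETS genes themselves were split. Of a list of 12, 10 passed the filter. At 48 h 1 was 2-fold lower and 1 higher, against 1.04% and 0.739% of all genes. At 72 h 4 were lower and 1 higher, against 1.6% and 2.26%. The median of the list was 0.14, 0.04 and -0.08 at the 3 times. Fosl1, an AP-1 subunit that accumulates when ERK is active, read 244.5, 206, 74.7 and 68.6, so both later arrays were low, with differences of -1.37 and -1.46. Etv4 and Etv5, of the PEA3 group of ETS factors, had differences of -1.22 and -1.24 at 72 h, and Junb of -1.01. Jun was at 1.01 at 48 h and 0.58 at 72 h, and Fosl2 at 1.13 at 72 h. Another Fosl1 probe set was at -0.51 and another Etv4 probe set at 0.05 at 72 h, while those of Etv5 were at -0.53 and -1.70. Ets1 read 254, 314, 458 and 404, and was at 0.78 at 48 h.

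Of the ADAMs, Adam12 and Adam23 were 2-fold higher at 72 h. Adam12, an active ADAM of mesenchymal cells and regenerating muscle, read 139, 148, 133 and 476 on the on, 24, 48 and 72 h arrays. Only the 72 h array was high. The differences were 0.07, -0.06 and 1.57, and the other Adam12 probe set gave 0.05, -0.15 and 1.25. Adam23, a neural ADAM without protease activity that binds integrins and LGI proteins, read 41.9, 37.6, 69.5 and 140.0. It was higher at 48 h and higher again at 72 h, with differences of -0.09, 0.46 and 1.22. Its 2 other probe sets gave 0.31 and 0.00 at 72 h, and with the mean over probe sets the difference was 0.51. The other 2 inactive neural ADAMs, Adam11 and Adam22, were at 0.25 and 0.18 at 72 h.

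The main sheddases differed by less. Adam10, which cuts NOTCH, cadherins and several EGF receptor ligands, read 693, 745, 463 and 442, so both later arrays were lower, with differences of 0.10, -0.55 and -0.61. Its 2 other bright probe sets gave 0.45 and 0.02 at 48 h and -0.35 and -0.58 at 72 h: the sign was shared at 24 and 72 h but not at 48 h. Adam10 was the 1 gene of 22 with several probe sets above the filter in which another one differed by over 0.2 in the opposite direction, at 48 h. Adam17, the TACE enzyme that releases TNF and EGF receptor ligands, read 323, 395, 441 and 399. It was above the on array at all 3 times, by 0.27, 0.41 and 0.28, and its other probe sets were too, by 0.18 to 0.89. Adam9 was at 0.26, -0.11 and -0.23 and Adam15 within 0.08 of the on array throughout. Adam19 was at -0.53 at 48 h alone, where its other probe set, also above the filter, was at -0.01. The 5 germ line ADAMs that passed the filter (Adam1a, Adam1b, Adam4, Adam6b and Adam21) had differences between -0.69 and 0.17. Adam6b read 50.0, 19.0, 23.4 and 30.6, dim throughout, and gave the lowest of these at 24 h. Adam8, an ADAM of leukocytes, read 37.0, 42.7, 56.0 and 56.0, and Adam33 was at -0.28, -0.15 and -0.23.

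**Figure D4:**
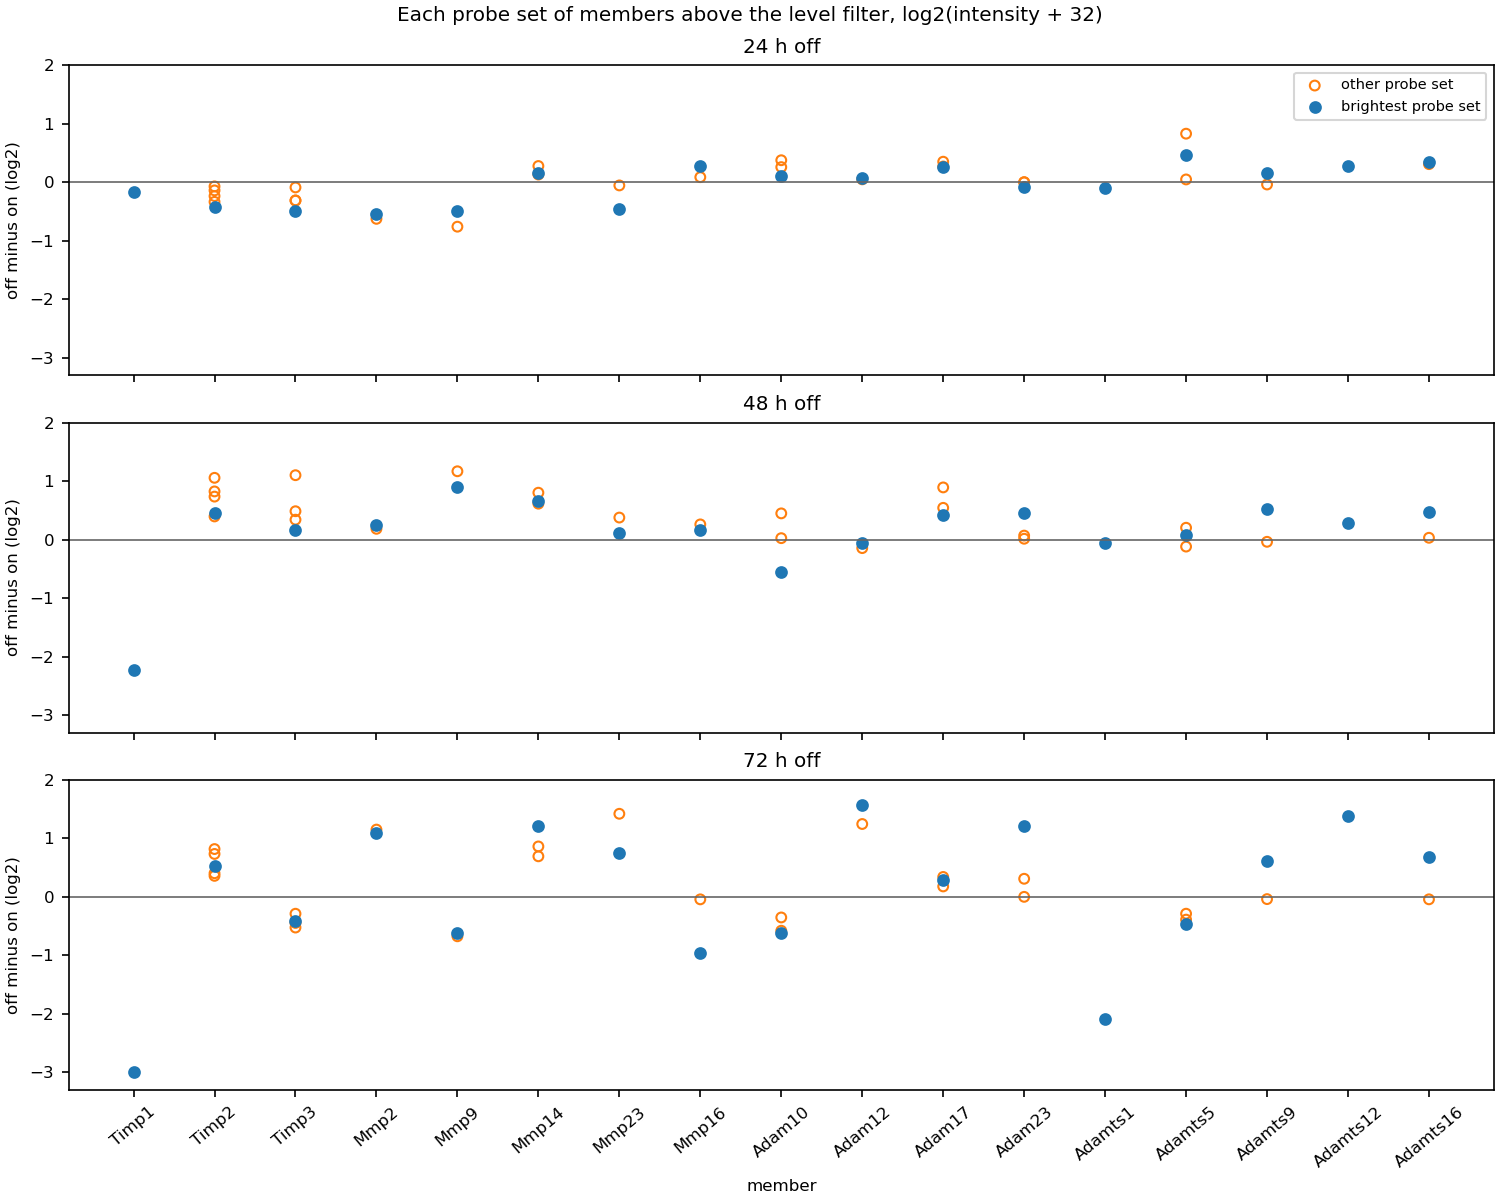
Difference from the on array, in log2(intensity + 32), of every probe set above the level filter for 17 members at 24, 48 and 72 h. Filled points are the brightest probe set and open points the others. At 72 h the probe sets of Mmp2 (1.09 and 1.15) and Adam12 (1.57 and 1.25) lie together, and those of Adam23 (1.22, 0.31 and 0.00) do not.

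Of the ADAMTSs, Adamts1 was much lower and Adamts12 higher, both on the 72 h array. Adamts1, a protease of the proteoglycans versican and aggrecan that also binds VEGF, read 1408, 1317, 1350.2 and 308 on the on, 24, 48 and 72 h arrays. The first 3 values were close and the last stood alone, 4.57-fold below the on array. The differences were -0.09, -0.06 and -2.08, the last ranking 33 from the lowest of all genes. Between 48 and 72 h Adamts1 was lower by a difference of -2.02, over a step in which 0.207% of all genes were 2-fold lower, and so were Mmp9 (-1.51) and Mmp16 (-1.11). The array holds 1 probe set for Adamts1. Its course differed from that of Timp1, which was already at -2.23 at 48 h.

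The stretches before Adamts1 and Mmp14 are shown beside that of Timp1, as the genes with the next lowest and a high difference at 72 h. They are the 250 bases before the RefSeq starts, at chr16:85803114-85803363 on the minus strand and chr14:54431348-54431597 on the plus strand of GRCm38.p6, 5′ to 3′ with AGGAAG in capitals.
Adamts1: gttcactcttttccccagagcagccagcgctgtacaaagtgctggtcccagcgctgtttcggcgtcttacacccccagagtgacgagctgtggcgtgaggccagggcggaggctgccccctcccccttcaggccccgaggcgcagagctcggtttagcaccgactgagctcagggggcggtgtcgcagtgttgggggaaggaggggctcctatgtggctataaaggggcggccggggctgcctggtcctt
Mmp14: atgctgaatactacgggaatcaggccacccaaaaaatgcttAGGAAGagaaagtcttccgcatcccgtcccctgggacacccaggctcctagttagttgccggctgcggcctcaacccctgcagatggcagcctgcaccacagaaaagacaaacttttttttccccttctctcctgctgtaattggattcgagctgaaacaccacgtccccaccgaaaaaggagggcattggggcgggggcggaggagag
The stretch of Adamts1 holds neither motif, and that of Mmp14 holds AGGAAG once, 209 bases before the start, and no TGANTCA. These letters were thus found before a gene that was lower, Timp1, and before one that was higher, Mmp14.

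Adamts12, which cuts the cartilage protein COMP, read 201, 248, 252.5 and 573, high on the 72 h array alone. Its differences were 0.27, 0.29 and 1.38, and its other probe set was below the filter, at about 10 on each array. Between 48 and 72 h Adamts12 and Adam12 were the 2 members that were 2-fold higher (1.09 and 1.63), against 0.895% of all genes. Adamts15, a versican and aggrecan protease, went from 41.5 to 104 at 72 h, a difference of 0.89. Adamts9, of the same group, read 118, 135, 183 and 197, and Adamts16 55.6, 79.5, 89.6 and 108, each higher on every later array. Their differences at 72 h were 0.61 and 0.68, but other probe sets of both were at -0.04.

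Adamts5, the main aggrecan protease of cartilage, was highest at 24 h. It read 146, 214, 156 and 97.6, with differences of 0.47, 0.08 and -0.46, and its other probe sets above the filter gave 0.83 and 0.05 at 24 h. Adamts7, a relative of Adamts12, read 171, 150.2, 92.5 and 119, with -0.70 at 48 h. Adamts4, Adamts6, Adamts8 and Adamts10 were within 0.32 of the on array at every time.

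From 24 to 72 h, a comparison without the on array, 6 of 44 members were 2-fold higher and 3 were 2-fold lower, against 1.94% and 1.83% of all genes. The higher ones were Mmp2 (1.63), Adam12, Adam23 (1.30), Mmp23 (1.21), Adamts12 (1.11) and Mmp14 (1.06). The lower ones were Timp1 (-2.82), Adamts1 (-1.99) and Mmp16 (-1.24).

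Many fibroblast, macrophage and muscle markers were higher at 72 h, as Mmp2, Mmp14, Adam12 and Adamts12 were, and their part in these differences was not tested. The 10 fibroblast markers all passed the filter, and their intensities summed to 18026, 18864, 35845 and 63956 on the on, 24, 48 and 72 h arrays. Of them 0, 3 and 7 were 2-fold higher at the 3 times, against 0.266%, 0.739% and 2.26% of all genes. Lum was at -0.86, 1.47 and 3.23 and Dcn at -0.73, 0.83 and 2.88. Pdgfra and Thy1 lay below the on array at both later times, at -0.58 and -0.57 and at -0.75 and -0.25. At the same times Mmp2 was at -0.54, 0.25 and 1.09. The macrophage markers, 10 of 10 above the filter, had 4 that were 2-fold higher at 72 h, against 2.26% of all genes. The 9 skeletal muscle markers summed to 284, 576, 260.0 and 4393, and 7 of them passed the filter. Myh4 and Tnnt3 were below its level on the other 3 arrays and passed through the 72 h array alone, and Myh1 and Myh2 did not pass. Ckm, above that level on every array, was at 0.00, -0.05 and 3.10. Adam12, which muscle also makes, was high on this array alone. The 8 endothelial markers summed to 453, 418, 426 and 771. Those of pericytes, 8 as well, summed to 2892, 3776, 2798 and 2742 but were split, so their sum does not stand for each of them. At 72 h Cspg4 was at -1.94 and Mcam at -0.73, whereas Rgs5 was at 1.76, Des at 0.74 and Acta2 at 0.53. Notch3 and Tagln were at 0.08 and -0.12. The 6 adipocyte markers on the array, of which 4 passed the filter, summed to 428, 228, 533 and 1756, with Fabp4 at -1.19, 0.59 and 2.43. At 72 h Adipoq was at 2.00, whereas Pparg and Retn were at 0.12 and -0.07, so this sum does not stand for each marker either.

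Timp1 and Adamts1 were lower at 72 h, where the fibroblast, macrophage, muscle, endothelial and adipocyte sums were above those of the on array. The pericyte sum stood at 0.95 times that of the on array, its markers being split. The part of these cell types in the lower values of Timp1 and Adamts1 was not tested. Of the other lists, the sums of keratinocyte markers (265, 253, 268 and 272) and mast cell markers (429, 493, 533 and 504) stayed within 1.24 times their value on the on array. Among the mast cell markers Cpa3 was at 0.60, 0.80 and 0.55. The others that passed the filter stayed within 0.26 of the on array, with Kit below it at each time.

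**Figure D5:**
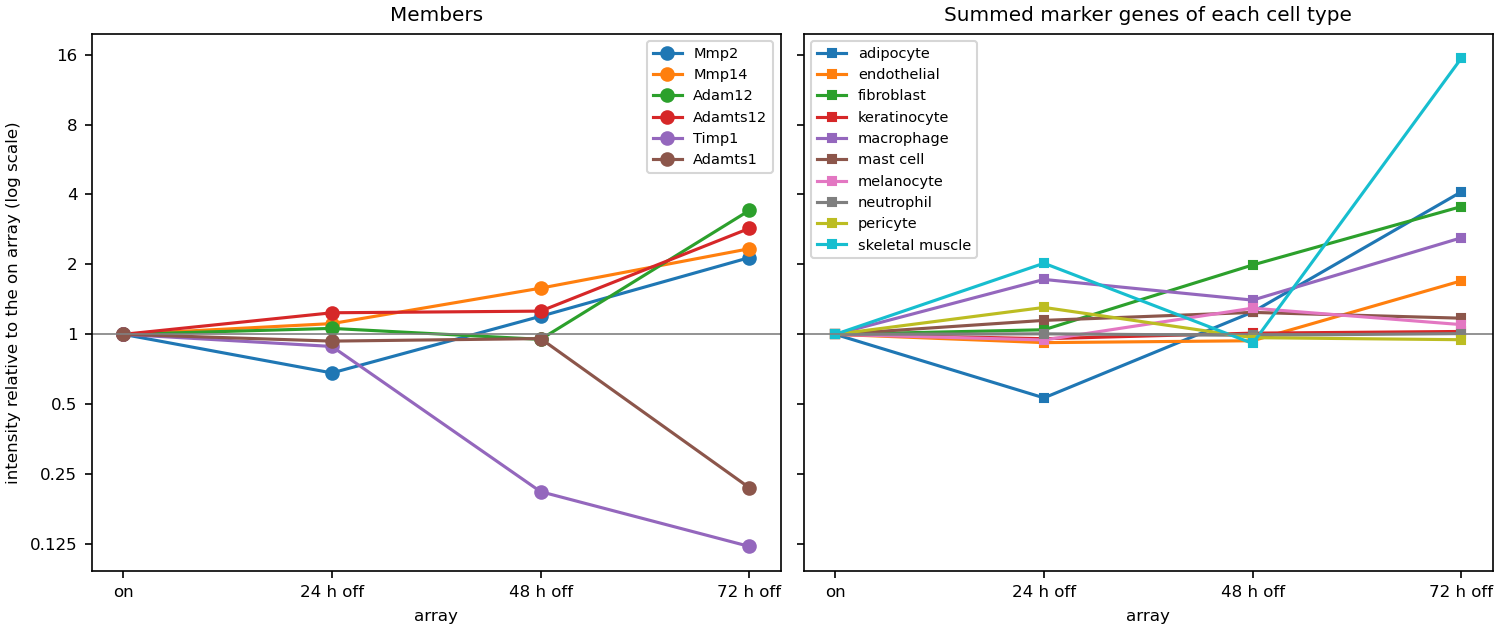
Left, intensity of 6 members relative to the on array (log scale). Right, summed intensity of the marker genes of each cell type relative to the on array, on the same scale. At 72 h Mmp2, Mmp14, Adam12 and Adamts12 stand at 2.14, 2.34, 3.41 and 2.86 and fibroblast and skeletal muscle markers at 3.55 and 15.4, while Timp1 stands at 0.12 and Adamts1 at 0.22.

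In a list of other regulators of these proteases, the genes that were 2-fold different were all higher. Of its 25 genes, 21 passed the filter, and 2 were 2-fold higher at 48 h and 1 at 72 h, with 0 lower at any time. Of all genes 0.739% were higher at 48 h and 2.26% at 72 h. Reck, a membrane-anchored inhibitor of MMP2, MMP9 and MMP14, read 69.3, 86.7, 222 and 354. Each later array was higher, with differences of 0.23, 1.33 and 1.93. Thbs1, a matrix protein that binds and clears MMPs, was at 0.40, 1.07 and 0.14, high at 48 h as Mmp9 was. Tspan15, a partner of ADAM10, read 316, 281, 170.0 and 168, with -0.78 and -0.80 at 48 and 72 h. Sparc, a matrix protein that binds collagen, was at -0.21, 0.39 and 0.69. The median of this list was -0.03, -0.01 and 0.00.

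Substrates of ADAM sheddases were lower in part. Of 33 listed, 25 passed the filter, with 4 2-fold lower at 48 h and 5 lower and 1 higher at 72 h. Of all genes 1.04% were lower at 48 h, and 1.6% lower and 2.26% higher at 72 h. The medians of the list were 0.06, -0.04 and 0.06. The EGF receptor ligand Hbegf, an ADAM17 substrate, read 1696, 1467, 487 and 282. Ereg, another such ligand, had differences of -0.28, -1.84 and -1.98, and Btc, which ADAM10 releases, read 519.6, 424, 228 and 181. Jag1, a NOTCH ligand, was at -1.11 and -1.06 at 48 and 72 h, and the hyaluronan receptor Cd44, cut by MMP14 and ADAM10, at -1.18 at 72 h. The other probe sets of Jag1 were dim and at -0.19 and -0.05 at 72 h, and that of Btc was at -0.48. Others were higher: at 72 h Cdh5, the endothelial cadherin, was at 1.19, Tnfrsf1b at 0.72 and Notch1 at 0.61. L1cam was at 0.88 at 48 h and 0.90 at 72 h. The sheddases Adam10 and Adam17 were within 0.61 of the on array at all 3 times.

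Substrates of ADAMTSs and MMPs in the matrix were higher in part. Of 18 listed, 16 passed the filter, with 2 2-fold higher at 48 h and 5 higher and 1 lower at 72 h. Of all genes 0.739% were higher at 48 h, and 2.26% higher and 1.6% lower at 72 h. The medians of the list were -0.07, 0.18 and 0.50. At both later times 5 lay below the on array. The higher ones at 72 h were Dcn (decorin), the fibrillar collagens Col1a1 (2.24), Col1a2 (1.77) and Col3a1 (1.68), and Bgn (biglycan, 1.49), which are also markers of fibroblasts in part. Reln (reelin), which ADAMTSs inactivate, was lower, at -1.34. Another Dcn probe set was dim and at 0.17.

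Of the related families, the 6 ADAMTS-like genes, which lack a protease domain, and the astacin proteases differed little. None of the 4 ADAMTS-like genes above the filter (Adamtsl1, Adamtsl2, Adamtsl3 and Adamtsl5) differed by more than 0.16 in size. Bmp1, the procollagen C-proteinase, read 1018, 987, 842 and 1047, and its enhancer Pcolce 936, 918, 1019 and 1885, a difference of 0.98 at 72 h. Pcolce2 read 48.6, 24.7, 20.4 and 16.4, with differences of -0.51, -0.62 and -0.73. All its off arrays lay below the filter level, so it passed through the on array alone. Astl was flat.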

How the data were processed

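Tumour RNA was measured on 4 Affymetrix mouse arrays, 1 per condition. The authors deposited linear intensity values, 1 for each probe set on each array. MAS5 and RMA are both listed in the submitters' processing notes without a role, and it is unknown here which produced the values. Median intensities were 33.3 to 34.0, and 48.0% of the 45037 probe sets had equal values on at least 2 arrays, a feature of unknown origin that shrinks differences.

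Genes were named from the platform annotation: 34945 probe sets had 1 symbol and were used, 932 had several and 9160 were unnamed here. The members are the genes whose symbol starts with Mmp, Timp, Adam or Adamts followed by a digit. The probe set with the highest mean of log2(intensity + 32) stood for its gene, and genes at or above the 40th percentile of that mean over probe sets (intensity near 24.8) were kept (13525 of 18193). Each off array was compared with the on array as a difference of these log2 values, with no p-value, and a size of 1 or more was called 2-fold. Counts over the steps between off arrays were added after the values were seen. The code of the calling step was checked on simulated data with little noise and changes beyond 2-fold in bright genes. That check says nothing of calls among dim or tied probe sets. Named members were those called at any time, all kept MMPs and TIMPs, the 4 brightest and 4 most different ADAMs and ADAMTSs, and the members on either side of the filter, and of each gene list up to 4 genes by mean absolute difference. Others named from the lists (Bgn, Reln, Cd44, Cdh5, Tnfrsf1b, Notch1, L1cam, Jun, Junb and Fosl2), several cell type markers and other ADAMs and ADAMTSs were named after their values were seen. Members and lists were chosen with earlier results of these data known. Promoters are RefSeq's, on GRCm38.p6. Protein sequences were not used here. Python 3.11.15, pandas 2.3.3 and NumPy 2.4.6 were used.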

Additional observations from a re-analysis of the deposited data

Results flagged for a closer look

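At 2 members the differences at 2 times were of opposite sign and at least 0.5 in size; whether they differ was not tested, since each time is 1 array. Mmp2 was at -0.54 at 24 h and 1.09 at 72 h, a gap of 1.63. Mmp9 was at 0.90 at 48 h and -0.61 at 72 h, a gap of -1.51. The other probe sets of both genes had the same signs.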

How the results depend on the processing

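Of 186 recomputed counts and subfamily medians, 180 stayed close to the reported value (within 1.5 times for counts, within 0.2 for medians) and 6 moved. With the mean over probe sets 1 member was 2-fold higher at 48 h and 3 at 72 h, against 0 and 5. With a pseudocount of 8, and with none, 1 member was 2-fold lower at 24 h, against 0, and with none 2 were lower at 48 h, against 1. The number 2-fold lower at all 3 times was 0, and 0 to 1 when 1 off array was left out: without the 24 h array it was 1, Timp1. Timp1, Adamts1, Adam12 and Mmp2 kept their calls under all 9 alternatives, Timp1 between -3.03 and -2.87 at 72 h. The 72 h count of lower members was 3, with Mmp16 added, under quantile normalization, a pseudocount of 8 and none. Mmp14 and Adamts12 lost theirs with the mean over probe sets (0.92 and 0.69), and Adam23 with that (0.51) and with a pseudocount 4 times as large. Of 1566 values of named genes 120 moved by 0.2 or more and 0 called ones changed sign. No paired analysis was possible because each group has 1 array. Dim probe sets and ties limit what can be seen below the filter.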

Other observations

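Members that lie next to each other in the RefSeq order did not follow one course. Adamts1 and Adamts5 are neighbours: at 24 h they were at -0.09 and 0.47, and at 72 h at -2.08 and -0.46. Adamts8 and Adamts15 are neighbours too, and at 72 h they were at 0.03 and 0.89. Adam9 lies beside Adam18, Adam3, Adam5 and Adam32, known from the testis, and was the only one of these 5 to pass the level filter. Of the run of 10 MMP genes, 4 passed it.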
